A study of Homo sapiens with 6 samples.

Results

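Fatty acid oxidation genes were taken as 33 named genes: the acyl-CoA synthetases, the carnitine palmitoyltransferases, the enzymes of mitochondrial and peroxisomal β-oxidation, the electron transfer flavoproteins and PPARA. All 33 were found by gene name among the 34644 gene names in the count tables, in 34 of 38648 rows, because DECR2 is listed at 2 places. The study asked what raised PRDM16, a transcriptional regulator of the PRDM family, does in senescent kidney cells. HK-2 cells, an immortalized human proximal tubular epithelial line, carried 1 of 2 lentiviruses, a negative control in 3 samples (IR+NC-LV) and a vector overexpressing PRDM16 in the other 3 (IR+PR-LV). Both groups were selected with puromycin, with no cloning step described, received a single X-ray dose of 8 Gy, and were harvested on day 7, so the comparison holds no cells without irradiation. Bulk RNA-seq was made from each of the 6 samples, and the labels number the libraries 1 to 3 in each group without saying whether they were grown separately, so the tests measure only the spread between these samples.

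β-oxidation shortens fatty acids to acetyl-CoA and feeds electrons to the respiratory chain. Long-chain acids are first joined to CoA by acyl-CoA synthetases, cross into mitochondria through CPT1, a carnitine carrier and CPT2, and then pass through repeated rounds of dehydrogenation, hydration, a second dehydrogenation and thiolysis. Very long chains start in peroxisomes. PPARA is the nuclear receptor that induces many of these genes, and the proximal tubule of the kidney relies on this pathway for much of its ATP.

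The totals ranged from 13407074 to 28540041 counts per library, and the members together held between 0.213% and 0.227% of them. PRDM16 had 2, 0 and 1 counts in IR+NC-LV replicates 1 to 3 against 14, 10 and 8 counts in IR+PR-LV, which did not overlap (exact permutation test, two-sided p = 0.1, the smallest that 3 against 3 allow). The keratins KRT8 and KRT18 were abundant, with means of 811 and 613 TPM in IR+NC-LV, whereas LRP2, the megalin receptor of the proximal tubule, had 3 counts in all 6 libraries and ANPEP, a brush border peptidase, had 19. Of the markers of other cell types, the endothelial list summed to between 0.366 and 0.640 TPM per library and the adipocyte list to between 0.458 and 0.830 TPM. CD68 of the leukocyte list and LUM of the fibroblast list were the exceptions, at 193 and 122 TPM in IR+NC-LV, with COL1A1 at 10.6 TPM and CD14 at 4.41 TPM in the same lists and PTPRC at 10 counts and COL1A2 at 7 counts in all. The leukocyte list summed to between 186 and 204 TPM in IR+NC-LV and between 158 and 174 TPM in IR+PR-LV, where CD68 averaged 161 TPM (unadjusted p = 0.0256, adjusted p = 0.40 from edgeR), and its part in the results was not tested. The fibroblast list summed to between 105 and 149 TPM over all 6 libraries. In bulk samples, fewer cells of a type and less RNA per cell cannot be told apart. IR+PR-LV replicates 1 and 3 stood apart in their trend with GC content, with a correlation of 0.387 and −0.320 between a gene's deviation and its GC content over 13871 genes, against 0.0282 or less in size in the IR+NC-LV libraries. The members followed that trend, as described below.

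Stretches of DNA just upstream of 4 members are shown because they carry the sequence feature that most members shared. They are taken from RefSeq on GRCh38.p14, run 5′ to 3′ on the strand of the gene, and leave out every base that the count files place in an exon. Capitals mark GC boxes (GGGCGG on either strand) and CCAAT boxes.
HADHB, chr2:26244689-26244916, plus strand: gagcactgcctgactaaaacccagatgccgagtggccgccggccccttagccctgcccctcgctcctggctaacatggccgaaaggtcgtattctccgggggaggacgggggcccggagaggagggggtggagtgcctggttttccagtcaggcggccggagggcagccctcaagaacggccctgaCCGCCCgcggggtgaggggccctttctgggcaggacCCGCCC
HADH, chr4:107989723-107989838, plus strand: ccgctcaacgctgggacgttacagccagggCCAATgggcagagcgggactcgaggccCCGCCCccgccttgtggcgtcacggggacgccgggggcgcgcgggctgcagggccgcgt
ACADM, chr1:75724459-75724708, plus strand: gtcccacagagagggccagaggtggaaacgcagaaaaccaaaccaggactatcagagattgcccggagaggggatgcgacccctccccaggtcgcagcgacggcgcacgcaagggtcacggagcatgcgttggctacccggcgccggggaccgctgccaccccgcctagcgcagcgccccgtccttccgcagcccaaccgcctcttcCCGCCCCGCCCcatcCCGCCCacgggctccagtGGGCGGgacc
CPT2, chr1:53196574-53196823, plus strand: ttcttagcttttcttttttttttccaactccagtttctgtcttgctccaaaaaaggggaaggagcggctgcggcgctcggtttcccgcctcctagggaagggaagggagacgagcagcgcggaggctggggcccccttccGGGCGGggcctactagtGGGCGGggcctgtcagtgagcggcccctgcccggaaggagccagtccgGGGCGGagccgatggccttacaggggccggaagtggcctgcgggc

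The HADHB stretch ends beside the start of HADHB and begins close to the start of HADHA, its partner in the mitochondrial trifunctional protein, since the starts of both genes lie 306 bases apart on opposite strands of chromosome 2. ACADM held 4 GC boxes in its 250 upstream bases and CPT2 held 3. Upstream sequence was searched for 26 of the 33 members, in 45 windows of 250 bases, and that of EHHADH, ACAA1, DECR1, DECR2, ETFDH, ACOX2 and CPT1B was not analysed here. At least 1 GC box stood in 66.7% of the member windows, against 42.6% of the 35116 windows of all genes. Counted by gene, 22 of the 26 had a GC box in at least 1 window. The share by gene over all genes was not computed, and a gene with several windows has more chances of a match. The median window of a member held 20 CG pairs and that of all genes 11. The DR1 element bound by PPAR receptors, a direct repeat of AGGTCA with 1 base between, matched in no member window and in 0.0171% of all windows. With so rare a match, 45 windows could not show whether members hold fewer of these elements than other genes. The half-site AGGTCA, which lies within the DR1 element, matched in 6.67% of member windows (ACSL5 and ACSL6) and in 12.1% of all. Both strands were searched, windows of 1 gene can overlap, and other starts of a gene were not searched. A match here is a run of letters and not a binding site.

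The levels of the 33 members in irradiated HK-2 cells spanned from near the counting limit to among the most abundant genes of these cells. In TPM, which scales counts by gene length, 10 members averaged over 100 TPM across the 6 libraries, 14 lay between 10 and 100, 4 between 1 and 10, and 5 under 1. The median member averaged 32.9 TPM and the median of all 15340 tested genes and gene copies 16.3 TPM. ACADVL, which starts the oxidation of very-long-chain and long-chain acyl-CoA, was the most abundant member at 390 TPM. ACSL4, the synthetase that prefers arachidonic acid, followed at 314 TPM. Their ranges overlapped, and ACADVL was above ACSL4 in 5 of 6 libraries.

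**Figure D1:**
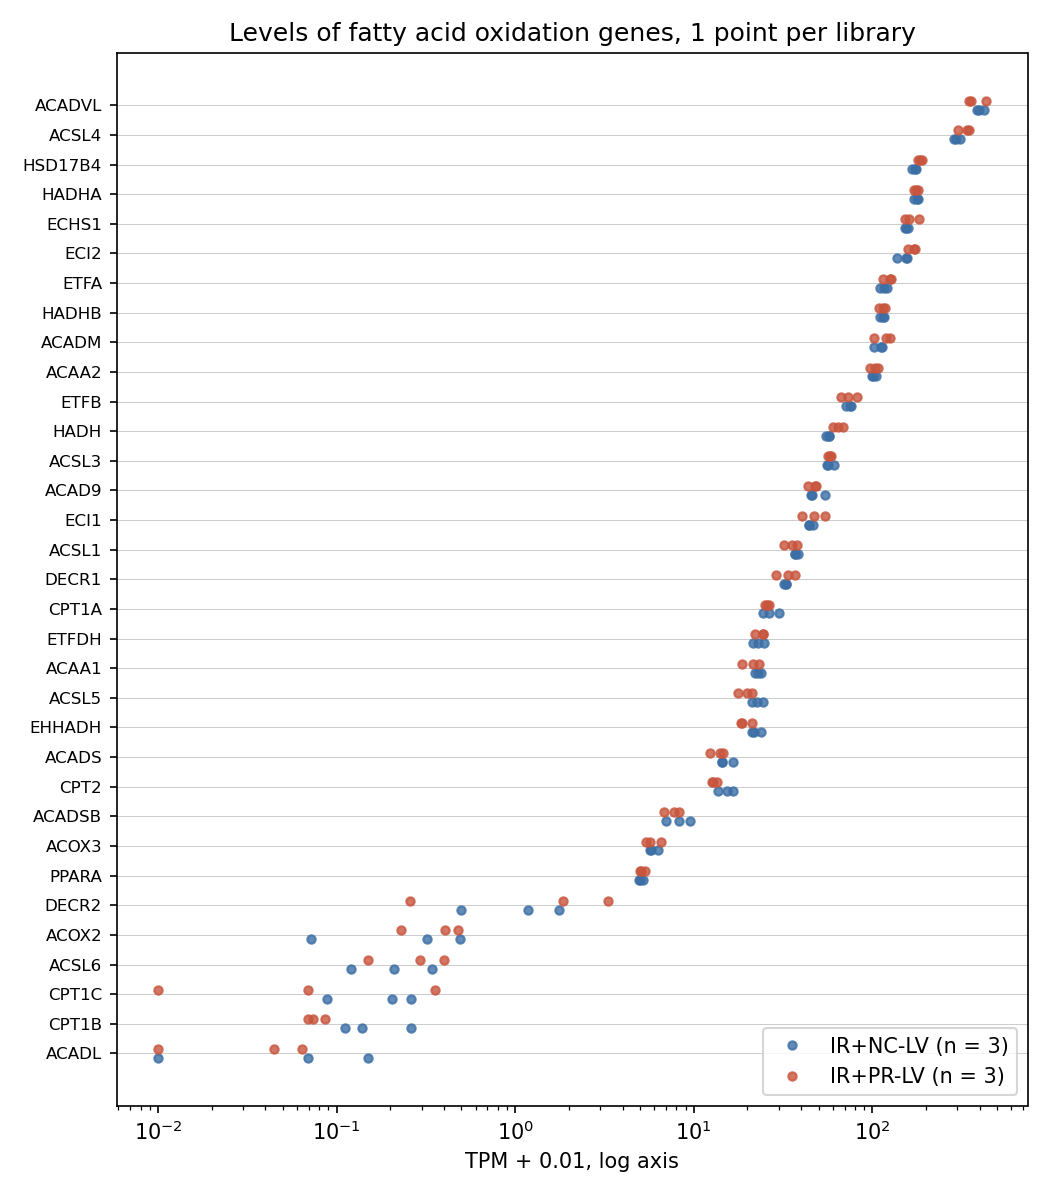
Level of each of the 33 members in each of the 6 libraries, as TPM plus 0.01 on a log axis, ordered by the mean; blue points are IR+NC-LV and red points IR+PR-LV (n = 3 each). The points of a gene sit close together from ACADVL at 390 TPM down to PPARA at 5.07 TPM and scatter for DECR2 and the 5 genes under 1 TPM.

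Several members averaged between 102 and 176 TPM. HADHA, which holds the hydratase and long-chain hydroxyacyl dehydrogenase, averaged 176 TPM, ECHS1, the short-chain hydratase, 160 TPM, HADHB, the thiolase partner of HADHA, 114 TPM, ACADM, the medium-chain dehydrogenase, 113 TPM, and ACAA2, the mitochondrial thiolase, 102 TPM. ECI2, an enoyl-CoA isomerase for unsaturated chains, averaged 159 TPM, and ETFA, which receives electrons from the dehydrogenases, 119 TPM. Ordered by level, neighbours among these 7 overlapped in range except ECI2 and ETFA. HADH, the dehydrogenase of shorter chains, averaged 60.3 TPM. The short-chain dehydrogenase ACADS lay lower, at 14.4 TPM, and the short/branched-chain dehydrogenase ACADSB at 7.93 TPM.

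A single isoform held most of the transcripts of the entry step. CPT1A, the liver isoform of the enzyme at the mitochondrial gate, made up between 98.5% and 99.8% of the summed TPM of the 3 CPT1 genes. It averaged 26.3 TPM, and CPT2, which returns the acyl group to CoA inside, averaged 14.1 TPM. CPT1B, the muscle isoform, had 11 counts in the 6 libraries and CPT1C, the brain isoform, 19. The CPT1B row shares 90.7% of its exon bases with the read-through gene CHKB-CPT1B on the same strand, so its few counts are uncertain. ACSL4 held between 70.1% and 74.9% of the TPM of the 5 synthetases, and ACSL6, a synthetase best known from brain, held under 0.1% in every library, with a highest share of 0.0834%.

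In the peroxisome, HSD17B4, the D-bifunctional protein, averaged 178 TPM, several times the 20.9 TPM of EHHADH, the L-bifunctional protein. The thiolase ACAA1 averaged 22.0 TPM and the branched-chain oxidase ACOX3 5.89 TPM, while ACOX2, the bile acid intermediate oxidase, had 28 counts in all. Outside the peroxisomal group, ACADL, the long-chain acyl-CoA dehydrogenase, had 6 counts in all. PPARA itself averaged 5.07 TPM, between 4.90 and 5.32 TPM in each library.

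None of the members was called between the groups. Of the 33, 29 had enough counts for the test, and ACADL, ACOX2, CPT1B and CPT1C did not. At an adjusted p under 0.05 (edgeR quasi-likelihood test, Benjamini-Hochberg over all 15340 tested), 0 of 29 members passed, against 0.0652% of all genes, and the lowest adjusted p was 0.39, for HADH. At an unadjusted p under 0.05, 2 of 29 passed (6.90%), against 10.5% of all genes. Both were higher in IR+PR-LV, a direction that 4.55% of all genes took at that threshold, and no member was lower, against 5.97% of all genes. DESeq2 called 0 of 29 as well, against 1.13% of all genes, with 3 at an unadjusted p under 0.05, against 8.25%. The fitted log2 fold change was positive in 19 members and negative in 10, with a median of 0.04, against 0.0044 for all genes tested and a positive sign in 51.1% of them.

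The intervals were narrow. The 95% interval of the log2 fold change lay within 0.5 of zero for 27 of 29 members (93.1%), against 66.7% of all genes tested. The other two, DECR2 and ACSL6, had 85 and 62 counts in the 6 libraries. Among the 27 members with at least 500 counts, fitted differences ran from −0.19 for CPT2 to 0.22 for HADH, and no bound fell below −0.43 or above 0.40. The median coefficient of variation within a group was 7.12% for the tested members and 9.51% for all tested genes. Neither comparison with all genes was matched for level, and the median member was more abundant (32.9 TPM against 16.3 TPM for all tested genes).

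**Figure D2:**
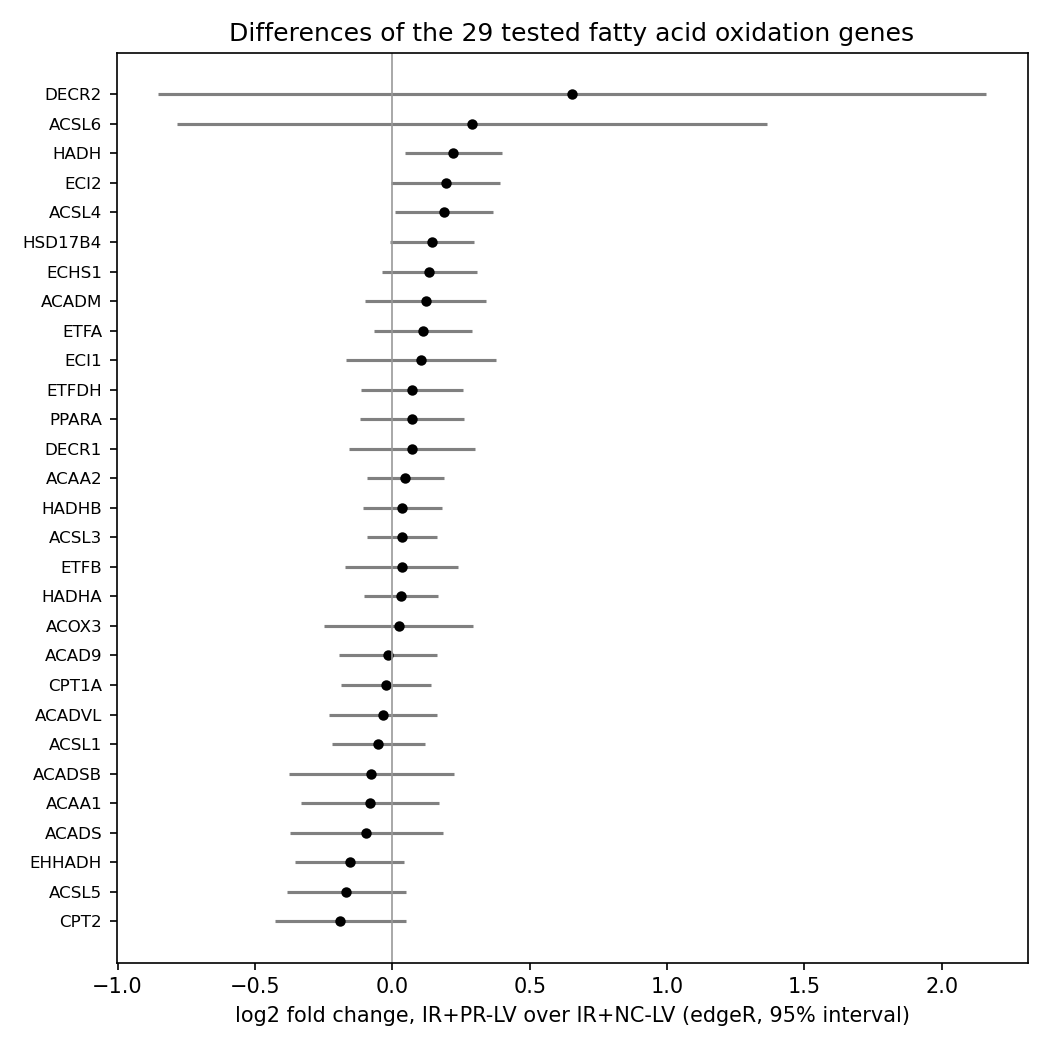
Log2 fold change of IR+PR-LV over IR+NC-LV for the 29 tested members, with 95% intervals from edgeR. The intervals of DECR2 and ACSL6 are wide, and the other 27 lie within 0.5 of zero, those of HADH and ACSL4 just to its right.

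HADH, the mitochondrial dehydrogenase of medium-chain and short-chain hydroxyacyl-CoA, showed the largest difference among the well-counted members. Its levels were 55.1, 57.2 and 57.2 TPM in IR+NC-LV and 59.9, 68.2 and 64.2 TPM in IR+PR-LV. All 3 IR+PR-LV libraries lay above the highest control, and the log2 fold change was 0.22 ± 0.08 (SE, n = 3 per group, 95% interval 0.05 to 0.40). The unadjusted p from edgeR was 0.0191 and the adjusted p 0.39, and with 1 library left out the unadjusted p ran from 0.0059 to 0.105. HADH lies at chr4:107989839-108035171 on the plus strand of GRCh38 in the count files, and its upstream bases are printed above.

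The mitochondrial enzymes that act after the first dehydrogenation had small positive estimates. The estimates of HADHA, HADHB, HADH, ECHS1 and ACAA2 were all above 0, with a median of 0.05, and kept that sign in every setting tried. Those settings refit the same libraries and are no independent support, and 20 of the 29 tested members kept their sign in all of them. HADHA measured 171, 179 and 180 TPM in IR+NC-LV and 180, 175 and 172 TPM in IR+PR-LV, and HADHB measured 110, 115 and 116 TPM and 109, 114 and 118 TPM. These partners overlapped between the groups, with intervals of −0.10 to 0.17 for HADHA and −0.11 to 0.18 for HADHB. ECHS1 measured 154, 152 and 158 TPM against 182, 160 and 153 TPM, and the highest value was that of IR+PR-LV replicate 1.

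The groups did not overlap in 6 of the 29 tested members on TMM-normalized CPM, which scales counts by library size (20.7%), against 17.0% of all genes tested, so this share was near the background. HADH, ECI2, HSD17B4 and PPARA were higher in every IR+PR-LV library (7.46% of all genes were), and CPT2 and EHHADH lower (9.54% of all genes). On TPM, 5 of these 6 did not overlap and PPARA did. ECI2 measured 157, 155 and 138 TPM in IR+NC-LV and 159, 170 and 173 TPM in IR+PR-LV (log2 fold change 0.19 ± 0.09, SE). HSD17B4 measured 173, 176 and 166 TPM and 180, 189 and 186 TPM (0.14 ± 0.07, SE). In both, the gap between the groups was smaller than the range within either group. Without IR+NC-LV replicate 3, the lowest library for both, the estimates were 0.11 and 0.09. PPARA measured 17.3, 17.3 and 16.8 CPM in IR+NC-LV and 17.6, 18.8 and 17.5 CPM in IR+PR-LV, a fitted log2 difference of 0.07 with an interval of −0.12 to 0.26.

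CPT2 measured 15.4, 13.7 and 16.6 TPM in IR+NC-LV and 12.8, 13.4 and 12.7 TPM in IR+PR-LV, with a log2 fold change of −0.19 ± 0.11 (SE). CPT1A measured 26.5, 24.4 and 30.0 TPM against 26.5, 25.1 and 25.6 TPM, and its estimate of −0.02 had an interval of −0.19 to 0.14. The IR+PR-LV values of CPT1A all lay inside the control range, while those of CPT2 all lay below it. EHHADH measured 21.9, 21.3 and 23.8 TPM in IR+NC-LV and 18.4, 21.2 and 18.7 TPM in IR+PR-LV (−0.16 ± 0.09, SE), and replicate 2 of IR+PR-LV lay just under the lowest control. Without that library the EHHADH estimate was −0.23. The adjusted p of CPT2 and of EHHADH was 0.57 from edgeR with Benjamini-Hochberg adjustment.

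ACSL4 had the second lowest unadjusted p (edgeR, 0.0409, adjusted 0.45). It measured 295, 311 and 287 TPM in IR+NC-LV and 303, 338 and 349 TPM in IR+PR-LV, and IR+PR-LV replicate 1 fell inside the control range. With 1 library left out the unadjusted p from edgeR ran from 0.0119 to 0.124. The estimates of the synthetases went both ways: 0.19 for ACSL4, 0.04 for ACSL3 and 0.29 for the scarce ACSL6, against −0.05 for ACSL1 and −0.17 for ACSL5. ACSL1, the main synthetase of fat and liver, measured between 36.8 and 38.6 TPM in IR+NC-LV and between 32.1 and 37.8 TPM in IR+PR-LV. ACSL5, found on mitochondria and endoplasmic reticulum, measured between 21.1 and 24.3 TPM against 17.8 to 21.2 TPM.

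Of the 5 tested acyl-CoA dehydrogenases, 1 had a positive estimate and 4 a negative one. ACADVL measured 384, 394 and 421 TPM in IR+NC-LV and 434, 359 and 347 TPM in IR+PR-LV, with an estimate of −0.03 and an interval of −0.23 to 0.16. Replicate 1 of IR+PR-LV was the highest of all 6 libraries and replicates 2 and 3 the lowest. ACADM showed the reverse within IR+PR-LV, at 103, 125 and 120 TPM against 112, 113 and 102 TPM in IR+NC-LV (0.12, interval −0.10 to 0.34). ACAD9, which also helps to assemble respiratory complex I, overlapped between the groups at 43.8 to 54.3 TPM over all libraries, and ACADS and ACADSB overlapped too.

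Among the auxiliary enzymes for unsaturated chains, DECR1, a mitochondrial dienoyl-CoA reductase, measured 32.8, 33.0 and 32.1 TPM in IR+NC-LV and 29.02, 37.0 and 33.8 TPM in IR+PR-LV. The IR+PR-LV libraries lay on both sides of the control libraries, as they did for the isomerase ECI1, at 54.1, 47.4 and 40.3 TPM against 43.9 to 46.8 TPM. DECR2, its peroxisomal counterpart, is listed on chromosome 16 with 4 counts and on the scaffold NT_187610.1 with 85, which is 95.5% of the counts of both copies. The scaffold copy had 14, 12 and 3 counts in IR+NC-LV against 2, 25 and 29 counts in IR+PR-LV, so the estimate of 0.65 had an interval of −0.85 to 2.16 and a level that is uncertain between the copies. The electron transfer genes ETFA, ETFB and ETFDH, the last of which passes electrons to ubiquinone, had estimates of 0.11, 0.03 and 0.07 and overlapped between the groups.

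Strand use in the counting is not given in the sources used here, which matters for members whose exons overlap a gene on the other strand. The shared exon bases were 29.5% of ACAD9 (with CFAP92), 23.9% of ECI2 (with C6orf201), 18.2% of ACAA1 (with DLEC1) and 15.2% of ETFDH (with PPID). PPID held 7827 counts beside the 2692 of ETFDH, and C6orf201 held 188 beside the 8737 of ECI2. Smaller parts overlapped in CPT1B (9.42%), EHHADH (6.80%), ACADVL (6.68%), ACSL5 (3.82%), CPT2 (3.67%) and ACSL4 (3.46%). CZIB held 2262 counts beside the 1328 of CPT2, and ZDHHC6 held 7003 beside the 2805 of ACSL5. EHHADH-AS1 held 1 count.

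Ratios between members within 1 library do not depend on library size. They were chosen after the values had been seen and carry no test. Of 9 ratios, 3 did not overlap between the groups. How often ratios of other gene pairs, or shares within other families, fail to overlap was not computed. The counts given here therefore have no background to be read against. HADH over HADHA was 0.322, 0.320 and 0.318 in IR+NC-LV against 0.332, 0.390 and 0.373 in IR+PR-LV. HSD17B4 over EHHADH averaged 7.71 ± 0.658 in IR+NC-LV against 9.54 ± 0.551 in IR+PR-LV (SD, n = 3), and CPT1A over CPT2 averaged 1.77 ± 0.0486 and 1.99 ± 0.108. Each of these 3 ratios holds a member already apart on TPM (HADH, HSD17B4, EHHADH or CPT2). They are therefore not results independent of those single genes. HADHA over HADHB was 1.55 in both groups on average, with 1.65 in IR+PR-LV replicate 1 and 1.46 in replicate 3 and a spread of only 0.00602 (SD) in IR+NC-LV. Of 14 shares within a family, 4 did not overlap, among them ACSL4 at 71.5% ± 1.46 of the synthetase TPM in IR+NC-LV against 74.5% ± 0.455 in IR+PR-LV. The shares of ACSL1 and ACSL5 were lower in every IR+PR-LV library, as was that of CPT1B, which rests on 11 counts.

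**Figure D3:**
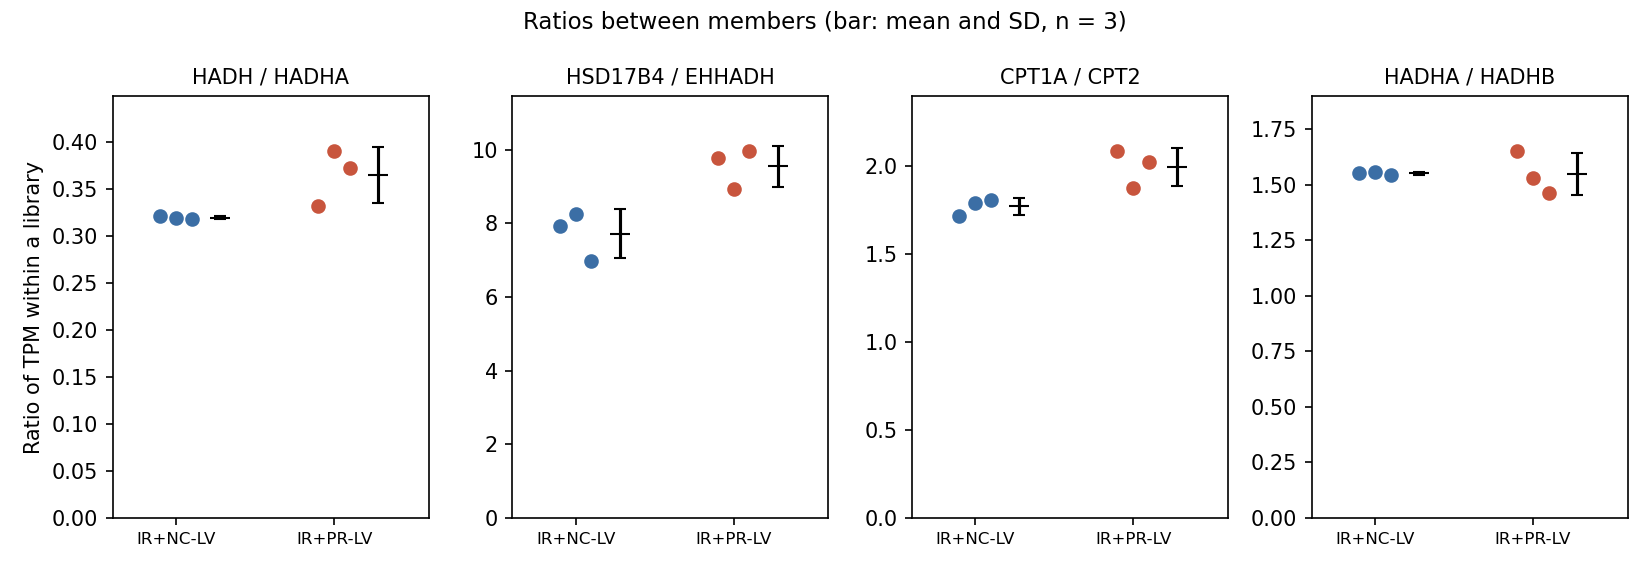
Ratios of TPM between members in each library, by group, with the mean and SD beside the points (n = 3). HADH/HADHA, HSD17B4/EHHADH and CPT1A/CPT2 lie higher in the 3 IR+PR-LV libraries, and HADHA/HADHB, with the same mean in both groups, spreads among them.

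The summed level of all member rows depended on the scale. In TPM it lay between 2291 and 2326 in IR+NC-LV and between 2355 and 2388 in IR+PR-LV, which did not overlap, a log2 ratio of 0.04. As TMM-normalized CPM per kilobase it lay between 667 and 727 and between 722 and 750, which overlapped.

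The spread among the IR+PR-LV libraries followed the GC content of the members. Of the 21 tested members with GC content under 50%, 16 were lowest in replicate 1 among the 3 IR+PR-LV libraries, and of the 8 at or above 50%, 5 were highest in it. ACADVL (58.8% GC) was 0.30 higher and ECI1 (61.4%) 0.31 higher in replicate 1 than the mean of replicates 2 and 3 on the log2 scale, while DECR1 (43.8%) was 0.28 lower, at −0.28, and ACADM (41.0%) at −0.25. Over the 27 members with at least 500 counts the Pearson correlation was 0.749 and Spearman's rho 0.688, and over 13871 genes Pearson's r was 0.416. This is a description across genes that share the same libraries, and the division at 50% was chosen after the values were seen. The part of GC content in the differences between the groups was tried by removing each library's trend: 0 members passed and the lowest adjusted p was 0.175 (edgeR). Without IR+PR-LV replicate 1, 0 of 29 members passed, the lowest adjusted p (edgeR) was 0.166 for HADH, and 6 had an unadjusted p under 0.05, against 16.4% of all genes. ACADVL then had an estimate of −0.14.

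**Figure D4:**
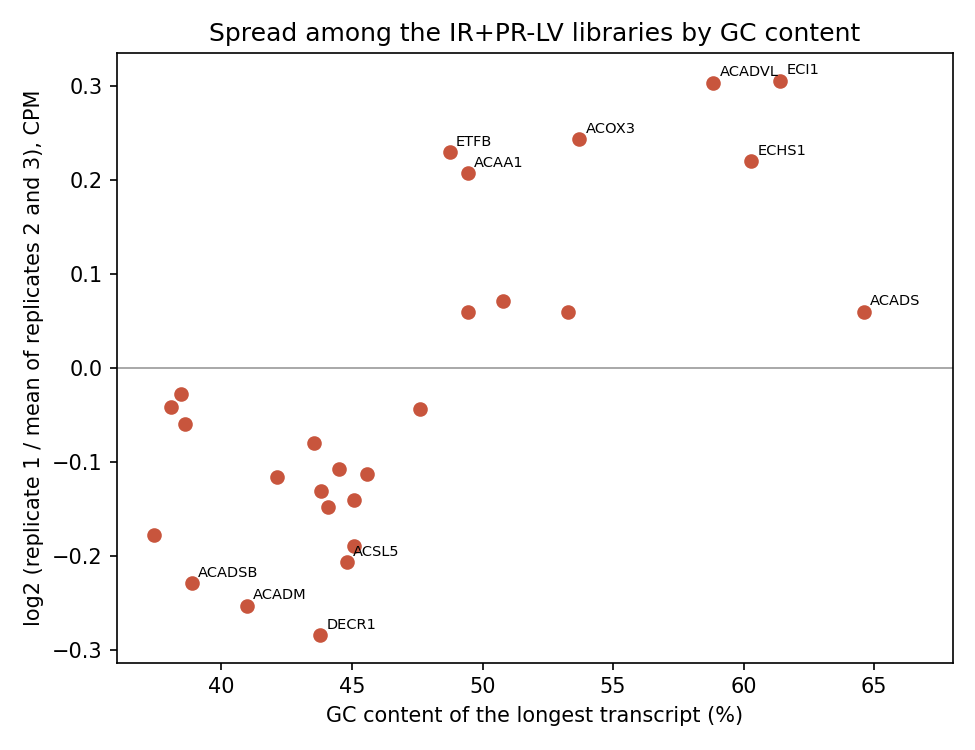
GC content of the longest transcript (%) against the log2 ratio of replicate 1 to the mean of replicates 2 and 3 in IR+PR-LV, in CPM, for the 27 members with at least 500 counts (1 point per gene). Members up to PPARA (47.6% GC) lie below zero, and those from ETFB (48.7% GC) upwards lie above it.

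The wider pathway was read from 9 lists of 89 genes around the cycle, of which 78 were tested. None passed an adjusted p under 0.05 (edgeR, Benjamini-Hochberg), and 9 (11.5%) had an unadjusted p under 0.05, against 10.5% of all genes. The estimates were positive in 44 and negative in 34, with a median of 0.03. The closest to a call was PPARGC1A, the coactivator PGC-1α that works with PPARA and drives mitochondrial biogenesis. It measured 5.33, 4.29 and 6.47 TPM in IR+NC-LV and 3.20, 3.03 and 2.88 TPM in IR+PR-LV. Every IR+PR-LV library lay below every control, with a log2 fold change of −0.77 ± 0.13 (SE) and an adjusted p of 0.0799 (edgeR). DESeq2 did call it, as did edgeR without IR+NC-LV replicate 2 and without a filter on low counts. Elsewhere the adjusted p from edgeR was 0.0662 with copies of a gene name summed and 0.121 with the replicate block. It reached 0.28 without IR+PR-LV replicate 2.

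Of the other 15 tested regulators, ACACB, which makes the malonyl-CoA that inhibits CPT1, had an unadjusted p under 0.05 from edgeR, with 5.04, 4.83 and 5.22 TPM in IR+NC-LV and 4.49, 4.03 and 3.95 TPM in IR+PR-LV (−0.24 ± 0.09, SE). The 4 carnitine genes had 1 positive and 3 negative estimates, between −0.09 and 0.17, and SLC25A20, the carnitine-acylcarnitine carrier between CPT1 and CPT2, averaged 24.1 ± 2.23 and 22.4 ± 2.94 TPM (SD, n = 3). Of the fatty acid uptake genes, FABP5 averaged 155 and DBI 194 TPM in IR+NC-LV, and CD36 was near the counting limit at 70 counts in all. ABCD3, which imports acyl-CoA into peroxisomes, had an estimate of 0.20 and overlapping groups.

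Of the PPAR targets outside the cycle, 5 were positive and 4 negative. PLIN2, a lipid droplet coat protein, averaged 343 ± 24.3 and 335 ± 8.66 TPM (SD, n = 3). PDK4, which diverts pyruvate from oxidation, averaged 15.6 ± 3.81 and 13.0 ± 2.69 TPM. CYP4A11 had a count of 0 in all 6 libraries. TXNIP (−0.35) and VNN1 (0.34) had an unadjusted p under 0.05 from edgeR, and without IR+NC-LV replicate 3 their estimates were −0.17 and 0.21. LIPA, the lysosomal acid lipase (0.27), and the phospholipase DDHD2 (0.23) also had such a p among 8 tested lipolysis genes. Of 13 fatty acid synthesis genes, 9 estimates were positive, and ELOVL6, an elongase of saturated chains, measured 9.24, 9.25 and 9.68 TPM in IR+NC-LV and 11.2, 11.2 and 11.6 TPM in IR+PR-LV (0.31 ± 0.08, SE, adjusted p 0.22 by edgeR). SCD, the stearoyl-CoA desaturase, had an estimate of 0.14. The 5 ketone body genes and the 5 acyl-CoA dehydrogenases of other substrates had none with an unadjusted p under 0.05 in edgeR.

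**Figure D5:**
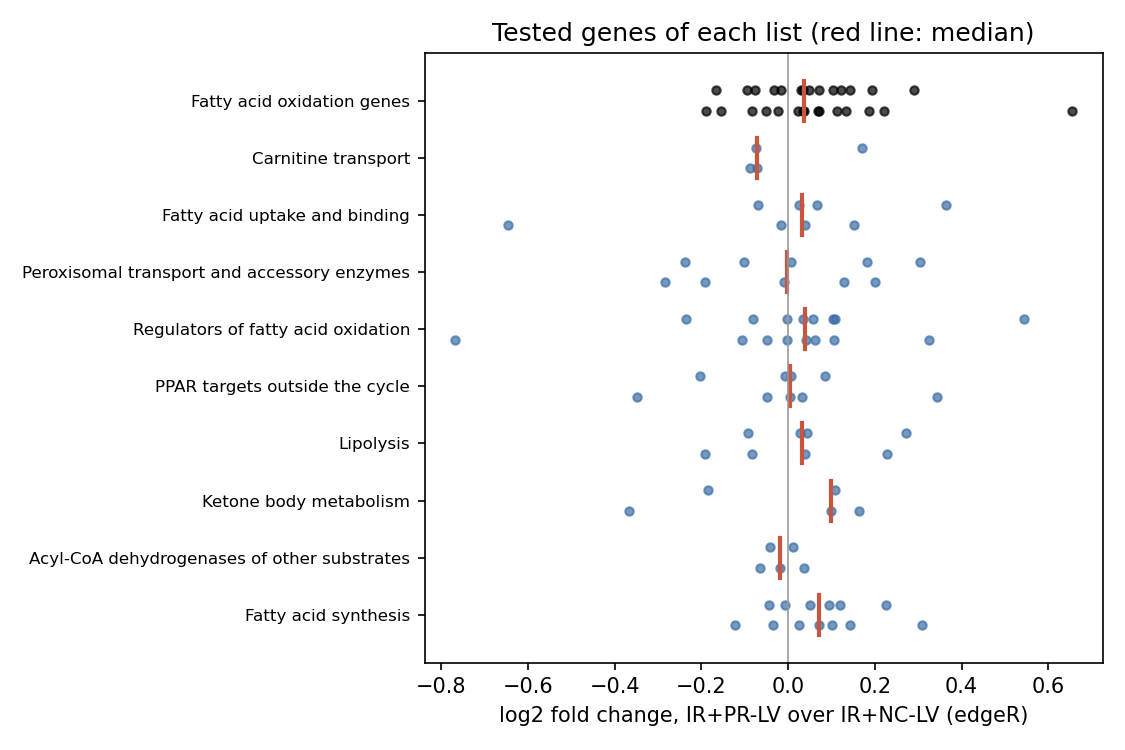
Log2 fold change of IR+PR-LV over IR+NC-LV (edgeR) for each tested gene of the member list (black) and of the 9 lists around it (blue), with the median in red. Medians lie close to zero, and PPARGC1A is the point at −0.77 among the regulators.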

How the data were processed

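Libraries were selected by poly(A), and low-quality or adapter-bearing reads had been removed. The labels' processing notes name CASAVA, featureCounts 2.0.1, DESeq2 1.16.1 and hg38, and the aligner is not given in the sources used here. Per gene and library, the authors deposited a raw count beside TPM and FPKM values computed from that count. All 6 samples were used. Counts were tested with edgeR 4.0.16 in R 4.3.3 (filterByExpr, TMM, quasi-likelihood test, no covariates) and adjusted by Benjamini-Hochberg over 15340 genes and gene copies. Intervals are at 95%, and fold changes are relative to TMM scaling, whose factors lay between 0.981 and 1.04. A count of 0 allows up to between 0.105 and 0.224 CPM per library (3 counts), for counting error only. A gene listed more than once is represented by its most counted copy. The text names PRDM16, every member, up to 3 genes per pathway list with an unadjusted p under 0.05, and marker genes needed for a level. Beyond that rule, SLC25A20, FABP5, DBI, CD36, PLIN2, PDK4 and CYP4A11 were named after their values were seen. 1 gene of the lists is not reported here. Members, lists, ratios and motifs were chosen with earlier results of these data known. GC content came from the longest GENCODE release 29 transcript. The fitting was tested on simulated counts. Other normalizations, filters, DESeq2 1.42.0, a replicate block, summed copies and leaving out each library were tried, and removal of the GC trend was added after seeing the data.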

Additional observations from a re-analysis of the deposited data

How the results depend on the processing

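No member passed an adjusted p under 0.05 in any of the 14 other settings, where the lowest was 0.166 (edgeR, HADH without IR+PR-LV replicate 1), and 20 of 29 members kept the sign of their estimate throughout. Over all genes the number called was 10, and it became 342 with no filter on low counts, 173 with DESeq2 and 3 with the replicate block, while leaving out 1 library gave between 1 (without replicate 1 of IR+NC-LV, and without replicate 3 of IR+PR-LV) and 28 (without IR+NC-LV replicate 2), with 16 without IR+NC-LV replicate 3. In the pathway lists the number called was 0, and it became 1 with DESeq2 (PPARGC1A), 2 with no filter (PPARGC1A and TXNIP) and between 0 and 1 when 1 library was left out. The log2 ratio of the summed member level was 0.0371 on TPM and 0.0759 on TMM-normalized CPM per kilobase. Estimates that crossed zero when 1 library was left out ranged from −0.17 to 0.054 for ACADSB, −0.070 to 0.022 for CPT1A, −0.049 to 0.035 for ACAD9, −0.094 to 0.0086 for ACSL1, −0.043 to 0.11 for ETFB, −0.058 to 0.086 for ACOX3, −0.14 to 0.036 for ACADVL, −0.024 to 0.16 for DECR1 and −0.15 to 0.0066 for ACAA1, and ACAD9 stood at 0.00081 with the GC trend removed. The causes were not tested. Same-numbered libraries deviated together with correlations of −0.0088, 0.05 and 0.07, so the numbers were not taken to pair the samples, and not every library correlated best with its own number. The depth did not allow a test of ACADL, ACOX2, CPT1B and CPT1C.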
